A study of Mus musculus with 4 samples.

Results

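The genes described here are the very long protein-coding genes of the mouse, those whose annotated span on GRCm38 is 500000 bp or more. Symbols that begin with Sema, Eph, Robo, Slit, Unc5, Ntn, Fgf, Itg, Adamts or Col were left out, which removed 11 genes. Of the 21995 protein-coding genes in the deposited table, 219 met this rule, and no measured value was used to choose them. The table lists 54842 genes and 1562 repeat families in all. RNA-seq was run on rRNA-depleted total RNA from untreated mouse embryonic fibroblasts (MEF cells), with 2 wild-type (wt) libraries and 2 libraries of the genotype top2beta null (Top2β-null MEF cells). Both were grown in high glucose DMEM with serum. The Top2β-null MEF cells were derived from Top2β-null mice and were received from other laboratories, so the origin of the cells and the genotype cannot be told apart. Nothing in the sources used here says that the 2 libraries of a group came from separate cultures, so p-values measure the spread between these libraries, which may be technical.

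A gene's span runs from its first to its last annotated base, introns included, and in very long genes nearly all of it is intron. RNA polymerase II overwinds the DNA ahead of it and underwinds the DNA behind it, and topoisomerases release this strain. TOP2β, a type II topoisomerase present throughout the cell cycle and also in cells that no longer divide, has been linked to the transcription of long genes, above all in neurons. Many of the longest mammalian genes encode adhesion molecules, receptors, ion channels and scaffolds of synapses, and several lie at common fragile sites, where chromosomes break under replication stress.

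The median span of the 219 genes was 734 kb, against 17.3 kb over all protein-coding genes, and the longest reached 4435 kb. Their exons added up to a median of 10.2 kb (3.49 kb over all protein-coding genes), so that exons covered a median of 1.20% of the span, against 20.5%. Other annotated genes lay within the span of 211 of the 219, with a median of 4 per gene. The counts were made over annotated exons, so that they do not say where along a span the reads fell.

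Counts per library summed to between 133116830 and 149647278. Values below are counts scaled to a common library size (normalized counts), except those given as counts alone, which are unscaled. Top2b itself, the targeted gene, stood at 18259 and 18465 in wt, and at 3879 and 3789 in Top2β-null libraries, which is 4.79-fold lower. Which exons the null allele lacks is not given in the sources used here. Of 14 fibroblast markers, 13 were tested, among them Col1a2, Vim and Fn1 at over 100 normalized counts in each library. Single markers moved apart, with log2 fold changes of 4.99 for Dcn, 2.07 for Thy1, -1.38 for Col1a1 and -5.86 for Postn, all of them called. The list's summed level lay between 1378207 and 1402359 normalized counts in wt and between 948017 and 952790 in Top2β-null MEF cells, with 4 called higher and 3 lower. As a background for each marker list, 5.27% of all genes and repeat families tested were called higher and 4.97% lower. By the adjusted p of 0.05 alone, 32.5% of them passed in each direction. Of 14 leukocyte markers 6 were tested, 3 passed the adjusted p higher (Csf1r, Fcer1g and Itgam) and 1 lower. That one, Cd68, was called, with 1641 and 1688 normalized counts in wt and 302 and 289 in Top2β-null libraries. It made up much of the sums of 2551 and 2600 against 1434 and 1451. Itgam reached 10 counts in the Top2β-null libraries alone, so that it had to be higher to be tested. Of 10 endothelium markers 7 were tested, 3 passed the adjusted p higher and 1 lower, with a median log2 fold change of -0.16 and sums from 307 to 311 and from 507 to 527. Kdr was called higher, and Tek was the lower one, with a log2 fold change of -2.54. Tek reached 10 counts in the wt libraries alone, so that it had to be lower to be tested. Of 11 epithelium markers 7 were tested, 5 passed the adjusted p lower and 1 higher, and Cldn7 was called lower. Their sums, from 1633 to 1651 and from 1331 to 1341, were mostly those of Krt19 and Esrp2, while Krt8 and Cldn4 had log2 fold changes of -3.13 and -3.76. Krt8, Cldn4 and Cdh1 reached 10 counts in the wt libraries alone, so that they had to be lower to be tested. The paralogue Top2a differed little, with 78726 and 80246 normalized counts in wt and 83408 and 83495 in Top2β-null libraries.

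Of the 219 genes, 131 reached 10 counts in 2 or more libraries and were tested. Of these, 16 passed through the Top2β-null libraries alone and 8 through the wt libraries alone, so that those genes had to differ to be tested at all. The other 88 never exceeded 13 counts in a library, and 17 had no count in any library. A gene was called when edgeR's adjusted p was below 0.05, the absolute log2 fold change above 1 and the mean normalized count above 100. By this rule 43 genes were called, with 27 of them higher in the Top2β-null cells and 16 lower. Of the higher ones, 6 had passed the filter through the Top2β-null libraries alone (Grik2, Mdga2, Gabrg3, Nkain2, Sox5 and Cpq), and among genes with at least 10 counts in every library 21 were called higher and 16 lower. The share called higher was 20.6% of the tested long genes, against 5.27% of all genes and repeat families tested and 7.21% of protein-coding genes tested. The share called lower was 12.2%, against 4.97% of all features and 7.08% of protein-coding genes. By the adjusted p of 0.05 alone, 67 were higher and 50 lower, or 51.1% and 38.2% of those tested, against 32.5% in each direction over all features. In all 43 called genes the 2 libraries of one group lay apart from the 2 of the other. The rule for a call nearly fixes this, so it is not separate support. Among the called genes edgeR's adjusted p ranged from 1.03e-21 for Tenm3 to 2.36e-08 for Lrrc4c.

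**Figure D1:**
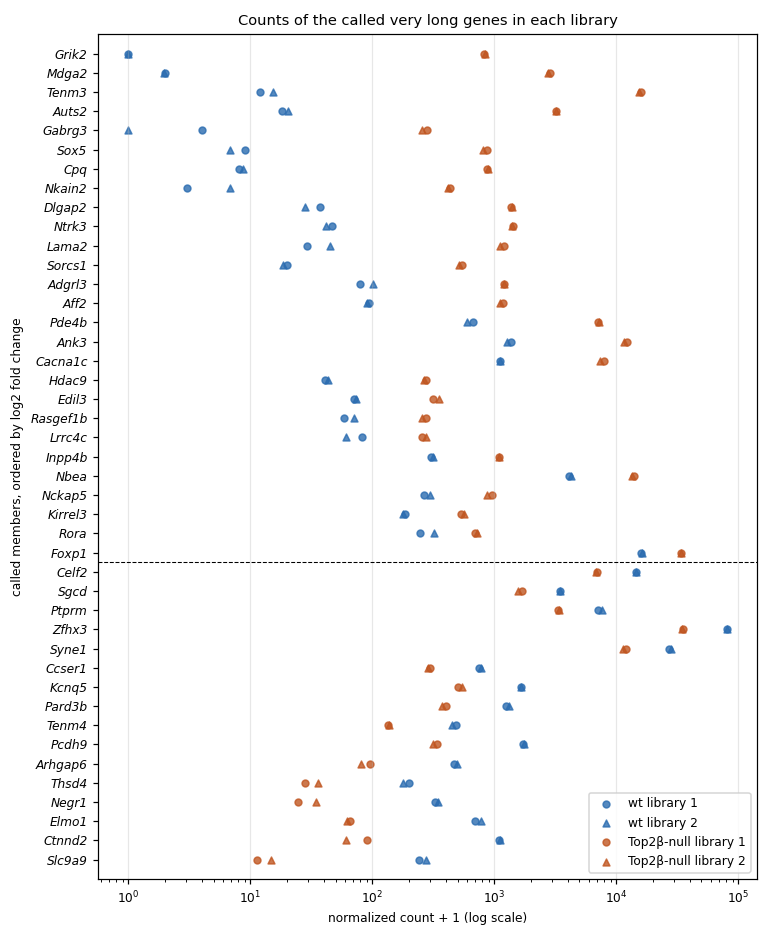
Normalized count plus 1 (log axis) of the 43 called genes in each of the 4 libraries, ordered by log2 fold change, with wt libraries in blue and Top2β-null libraries in orange. The 27 genes above the dashed line were higher and the 16 below it lower in Top2β-null MEF cells. In each row the blue and orange points are separate, which the rule for a call nearly fixes.

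Among called genes, 16 were more than 8-fold higher and 4 more than 8-fold lower on the fitted scale, and more than 16-fold it was 12 and 1. These counts include the 6 genes that were tested through the Top2β-null libraries alone, and without them they were 10 and 4, and 6 and 1. The higher genes Grik2, Mdga2 and Gabrg3, had at most 3 counts in each wt library and at least 100 normalized counts in both Top2β-null libraries. No gene showed the reverse at that level.

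The promoters of these last genes are printed because their transcripts were at the floor in wt and present in Top2β-null MEF cells. Each sequence comes from RefSeq on GRCm38.p6 and runs 5′ to 3′ on the gene's own strand, the minus strand in each case. It holds 250 bases before and 50 bases after the annotated transcription start, and the capitals mark CG dinucleotides. The RefSeq start lies at the GENCODE start of Mdga2, 27 bases upstream of it for Gabrg3, and 12 bases inside the gene for Grik2.
Grik2 promoter, chr10:49788705-49789004: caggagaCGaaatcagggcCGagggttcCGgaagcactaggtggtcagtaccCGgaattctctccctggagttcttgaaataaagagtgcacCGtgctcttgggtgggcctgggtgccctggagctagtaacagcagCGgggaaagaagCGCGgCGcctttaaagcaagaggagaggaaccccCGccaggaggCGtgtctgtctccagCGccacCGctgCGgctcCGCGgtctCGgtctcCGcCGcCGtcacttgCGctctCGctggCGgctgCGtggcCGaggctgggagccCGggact
Mdga2 promoter, chr12:67222500-67222799: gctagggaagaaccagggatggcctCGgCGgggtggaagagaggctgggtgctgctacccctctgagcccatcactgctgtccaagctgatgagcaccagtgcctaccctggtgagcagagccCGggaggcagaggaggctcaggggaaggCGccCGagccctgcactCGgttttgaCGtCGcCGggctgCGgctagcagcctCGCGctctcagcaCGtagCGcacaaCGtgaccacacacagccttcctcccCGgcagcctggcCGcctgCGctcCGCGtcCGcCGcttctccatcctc
Gabrg3 promoter, chr7:57387166-57387465: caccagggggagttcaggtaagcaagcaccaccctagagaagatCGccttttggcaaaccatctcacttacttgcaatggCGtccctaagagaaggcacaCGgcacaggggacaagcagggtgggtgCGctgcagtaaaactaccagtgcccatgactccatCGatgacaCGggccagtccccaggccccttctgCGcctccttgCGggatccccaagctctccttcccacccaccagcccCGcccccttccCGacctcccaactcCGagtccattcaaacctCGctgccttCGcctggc

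The window of Grik2 held 26 CG dinucleotides, that of Mdga2 22 and that of Gabrg3 13. Over the 32851 windows of this length in the table the median was 7, and 16.9%, 23.1% and 37.9% of windows held at least as many as Grik2, Mdga2 and Gabrg3, respectively. The motif TATAAA was found on neither strand of these windows, while 13.6% of all windows held it on at least 1 strand. RefSeq windows were matched for 168 of the 219 genes by symbol, 267 windows in all, with a median of 12 CG dinucleotides and TATAAA in 10.5%. These are counts of letters and not measurements of binding or methylation.

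Grik2 encodes a pore-forming subunit of kainate-type glutamate receptors and spans 693934 bp (GRCm38, chr10:49094833-49788766, minus strand). It had no count in either wt library, and 790 and 841 counts in the Top2β-null libraries, which is at least 279-fold higher than the floor of 3 counts per library. Gabrg3, the gamma-3 subunit of GABA-A receptors (chr7:56716465-57387188, minus strand), had 3 and 0 counts in wt and 269 and 257 counts in Top2β-null libraries, a ratio of 180 with a 95% counting interval from 61.2 to 875. Without either Top2β-null library its mean normalized count fell to 87.7 or 93.7, under the cut-off of 100, and its fitted log2 fold change, 7.38, was 6.40 without the second wt library and 11.06 without the first, where the remaining wt library has no count. The intervals and floors cover counting error alone, since reads without molecular identifiers are not independent molecules. Of the 7 neurotransmitter receptors among the long genes, 3 were tested and 2 called, both of them higher, beside 5.27% of all features. The 2 called, Grik2 and Gabrg3, were tested through the Top2β-null libraries alone and so had to be higher.

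Mdga2 encodes a membrane-anchored immunoglobulin protein that binds neuroligins at synapses (chr12:66466060-67222549, minus strand). It had 1 count in each wt library and 2765 and 2809 counts in the Top2β-null libraries, a ratio of 2859 with a counting interval from 791 to 23612. Of its exon bases, 9.0% also lie in genes on the opposite strand. The kit keeps the strand, but the sources used here do not say whether the counting used it, so reads from such overlaps cannot be assigned with certainty.

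Teneurins are large adhesion proteins whose partners on facing cells are the latrophilins, and all 4 genes of the family are among the very long genes. Tenm3 (chr8:48227682-48843951, minus strand) had 11.1 and 14.5 normalized counts in wt and 15852 and 15498 in Top2β-null libraries, 1225-fold higher. Tenm4 went the other way, with 481 and 452 normalized counts in wt against 135 and 136 in Top2β-null libraries, 3.45-fold lower. Tenm1 had 3, 0, 0 and 0 counts, and Tenm2 had 5 and 1 counts in wt and 7 and 3 in Top2β-null libraries, and neither was tested. Per kb of exon, Tenm3 in Top2β-null MEF cells stood at 1531 normalized counts, far above the 22.2 of Tenm4 in wt MEF cells. One family thus held a called gene in each direction.

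The latrophilin Adgrl3 is itself a very long gene and was 13.5-fold higher, with 78.7 and 99.5 normalized counts in wt and 1191 and 1208 in Top2β-null libraries. On the list of 3 latrophilins and 3 FLRT proteins, which bind latrophilins, all 6 genes were tested, 5 passed the adjusted p higher and 1 lower, and 2 were called, both higher, beside 32.5% and 5.27% of all features passing and called higher. Adgrl2 was the other called gene, with 3852 and 3818 normalized counts in wt and 17370 and 17202 in Top2β-null libraries. Flrt2 was the lower one, with a log2 fold change of -0.52.

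Cell adhesion genes with roles at synapses were mostly too low to test. Of 27 on the list of neurexins, contactins and other synaptic adhesion genes, 20 were not tested, and 7 of these, Lsamp, Cntn4 and Adgrb3 among them, had no count at all. Of the 7 tested, 6 passed the adjusted p higher and 1 lower, and Adgrl3, Kirrel3 and Negr1 were called. Of the higher ones, Il1rapl1, Opcml and Ntm were tested through the Top2β-null libraries alone and so had to be higher, and 32.5% of all features passed in each direction. Kirrel3, an immunoglobulin adhesion protein, was 3.04-fold higher, with 186 and 178 normalized counts in wt and 537 and 570 in Top2β-null libraries. Negr1, a neuronal growth regulator of the IgLON family, was 11.6-fold lower, with 325 and 344 against 23.8 and 33.7 normalized counts. Ptprd, a receptor tyrosine phosphatase that organizes synapses, rose by less than the fold cut-off, from 724 and 735 to 1236 and 1161 normalized counts.

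Of the ligands and partners of neurexins on the list, 10 were tested, and 2 passed the adjusted p higher and 3 lower. Over all features 32.5% passed in each direction. Cbln1 was called higher and Nlgn2, neuroligin 2, called lower, beside 5.27% and 4.97% of all features. Nrxn3, itself a neurexin, had at most 2 counts in any library. Of 16 neuron markers, 7 were tested, and 4 passed the adjusted p higher and 1 lower, beside the same 32.5% in each direction. The list's summed level ran from 7169 to 7248 normalized counts in wt and from 9887 to 10415 in Top2β-null MEF cells. Tubb3 was the called one, at 2022 and 2007 against 4322 and 4598 normalized counts. Slc17a6, a vesicular glutamate transporter, was at 33.3 and 19.3 against 169 and 163, and Syt1, a calcium sensor of synaptic vesicles and also a very long gene, at 97.9 and 138 against 212 and 245. The defining markers Rbfox3, Snap25, Stmn2 and Nefl had at most 8.29 normalized counts in each library. No marker of this list was at 0 in all 4 libraries. Of 12 glia markers, 7 were tested, and 4 passed the adjusted p lower and none higher, again beside 32.5% of all features each way. The summed levels were 1741 and 1835 in wt and 1610 and 1523 in Top2β-null libraries, with Mag and Olig1 at 0. The part of such cells in these differences was not tested, and in bulk RNA fewer cells of a type and less RNA per cell cannot be told apart.

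Of 10 cadherins, protocadherins and catenins 6 were tested, 4 passed the adjusted p lower and 1 higher, and the 2 called were both lower. Over all features 32.5% passed it lower. Among the lower genes, Pcdh11x was tested through the wt libraries alone and so had to be lower. Ctnnd2, which encodes delta-catenin, a protein of the p120 family that binds cadherin tails (chr15:30172593-31029341), fell 14.8-fold, from 1083 and 1117 to 89.1 and 59.4 normalized counts. Pcdh9, a protocadherin, fell 5.36-fold, from 1731 and 1763 to 337 and 315. It lies on chromosome 14, which also carries Top2b, and was the 1 called gene among 7 tested on that chromosome. Cdh13, a cadherin without a cytoplasmic tail, was at 4212 and 4194 in wt and at 2902 and 2718 in Top2β-null libraries.

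Among transcription factors and chromatin genes, 13 of 17 were tested, and 5 were called higher and 1 lower, beside 5.27% and 4.97% of all features. Sox5 was tested through the Top2β-null libraries alone and so had to be higher. Auts2, which encodes a protein found in a form of Polycomb complex 1 (chr5:131437333-132543344, minus strand), had 17.2 and 19.3 normalized counts in wt and 3188 and 3227 in Top2β-null libraries, 176-fold higher. Sox5, a transcription factor with an HMG box (chr6:143828425-144781977, minus strand), had 8.07 and 5.80 against 871 and 808, and 9.25% of its exon bases are shared with genes on the other strand. Hdac9, a class IIa histone deacetylase, was 6.54-fold higher at 277 and 265 normalized counts in Top2β-null libraries. Smaller differences were seen for the nuclear receptor Rora, 2.52-fold higher, and for the forkhead factor Foxp1, 2.12-fold higher. Zfhx3, a zinc finger and homeobox factor, had the highest level per kb of exon among the 219 genes in wt and on average over the 4 libraries, at 3849 normalized counts per kb in wt and at 1662 in the Top2β-null libraries, where Foxp1 stood higher at 2477. It fell 2.32-fold, from 80723 and 80736 to 35066 and 34647 normalized counts. The list as written also holds Atrnl1, a transmembrane protein related to attractin, with a log2 fold change of 0.44.

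Of the signalling enzymes 14 were tested, 10 passed the adjusted p higher and 3 lower, and 4 were called, all of them higher, where 20.6% of all tested long genes and 5.27% of all features were called higher. Cpq among them was tested through the Top2β-null libraries alone. The largest difference was in Cpq, a secreted carboxypeptidase and thus not a signalling enzyme in the strict sense, which had 7.07 and 7.73 normalized counts in wt and 867 and 887 in Top2β-null libraries. Pde4b, a phosphodiesterase that degrades cyclic AMP, was 11.3-fold higher, with 673 and 596 against 7110 and 7265. Its longer relative Pde4d (1504 kb) was at 2355 and 2371 in wt and at 3352 and 3182 in Top2β-null libraries, a log2 fold change of 0.47. Inpp4b, an inositol polyphosphate phosphatase, was 3.56-fold higher, and Rasgef1b, an exchange factor for Ras family proteins, 4.13-fold higher. On the other side, Alk, a receptor tyrosine kinase, had 17 and 24 counts in wt and 2 and 0 in Top2β-null libraries, a wt to Top2β-null ratio of 19.99 with a counting interval from 5.19 to 171. Its mean was too low for a call.

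The scaffold, cytoskeleton and traffic list was the largest, with 29 of 35 genes tested, and its calls were divided, 3 higher and 5 lower, beside 5.27% and 4.97% of all features. Dlgap2, a scaffold of postsynaptic densities, was 43.6-fold higher, with 36.3 and 27.1 normalized counts in wt and 1378 and 1387 in Top2β-null libraries. Its paralogue Dlgap1 stood at 241 and 254 in wt and at 164 in both Top2β-null libraries. Ank3, which encodes ankyrin-G, a linker of membrane proteins to spectrin, was 8.99-fold higher, at 1368 and 1277 against 12149 and 11629. Its paralogue Ank2 had a log2 fold change of -0.96, from 10879 and 10557 to 5544 and 5482 normalized counts. Nbea, neurobeachin, a protein of membrane traffic, was 3.33-fold higher.

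Lower genes of this list included Elmo1, which acts with DOCK proteins to activate Rac and fell 11.7-fold, from 691 and 774 to 64.2 and 61.4 normalized counts. Dock1, one of its DOCK partners and also a very long gene, was at 7515 and 7585 in wt and at 13943 and 13318 in Top2β-null libraries, a log2 fold change of 0.85. Arhgap6, a GTPase-activating protein, fell 5.50-fold, and 11.0% of its exon bases are shared with the other strand. Pard3b, a polarity protein, fell 3.33-fold, whereas its paralogue Pard3 had a log2 fold change of 0.34. Syne1, which encodes nesprin-1 of the nuclear envelope, fell 2.36-fold, from 27061 and 28052 to 11920 and 11467. The fifth, Ccser1, fell 2.65-fold. In the paralogue pairs Dlgap1 and Dlgap2, Ank2 and Ank3, and Pard3 and Pard3b the fold changes differed in sign, whereas Nav2 and Nav3, which encode neuron navigators, shared one (log2 fold changes of 0.34 and 0.26).

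Of the ion channel genes 6 were tested, 1 passed the adjusted p higher and 4 lower, with a median log2 fold change of -0.54, and 1 was called in each direction. Over all features 32.5% passed each way, and 5.27% were called higher and 4.97% lower. Cacna1c, the pore of an L-type calcium channel, was 6.82-fold higher, with 1114 and 1124 normalized counts in wt and 7933 and 7334 in Top2β-null libraries. Kcnq5, a voltage-gated potassium channel, fell 3.14-fold, from 1654 and 1641 to 504 and 544. Ryr3, an intracellular calcium release channel, had a log2 fold change of -0.35.

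Of the receptors and large surface proteins, 9 of 20 were tested, 1 was called higher and 2 lower, beside 5.27% and 4.97% of all features. Sorcs1, a sorting receptor, was 28.8-fold higher, with 19.2 and 17.4 normalized counts in wt and 543 and 509 in Top2β-null libraries. Ptprm, a receptor tyrosine phosphatase that mediates adhesion, fell 2.17-fold. Thsd4, related to the ADAMTS-like proteins of microfibrils, fell 6.11-fold, from 199 and 178 to 26.9 and 34.7. Its mean normalized count was 80.0 or 85.8 without a wt library, under the cut-off. The related phosphatases Ptprk and Ptprg had log2 fold changes of -0.95 and 0.51, and so did not share a sign.

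Nrg1, a ligand of ERBB receptors, rose modestly, from 5920 and 5857 to 8002 and 7496 normalized counts, while Nrg3 had no count and Erbb4 had 1 count in each wt library. On the list of other neuregulins, ERBB receptors and their ligands, 10 of 11 genes were tested. Of these, 4 passed the adjusted p higher and 5 lower, beside 32.5% of all features in each direction. Areg and Ereg, which encode the EGF-family ligands amphiregulin and epiregulin, were called higher, and Nrg2 was called lower, beside 5.27% and 4.97% of all features. Areg had 2.02 and 3.86 normalized counts in wt and 501 and 593 in Top2β-null libraries. It was tested through the Top2β-null libraries alone and so had to be higher. Ereg stood at 1878 and 1872 in wt and at 11740 and 11981 in Top2β-null libraries.

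The dystrophin complex links the cytoskeleton to laminin through dystroglycan. Dmd itself, which encodes dystrophin and spans 2257 kb of the X chromosome (GRCm38, X, 82948870 to 85206141), had 127 and 98.5 normalized counts in wt and 4.14 and 12.9 in Top2β-null libraries, 13.3-fold lower, with an edgeR adjusted p of 1.08e-07. Its log2 fold change, -3.69, was -3.10 without the first and -4.72 without the second Top2β-null library. Its mean was under 100 and it was not called. Sgcd, delta-sarcoglycan, was called and fell 2.13-fold, from 3463 and 3472 to 1703 and 1561. Sgcz and Sntg1 had at most 2 counts in a library.

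Lama2, the laminin alpha-2 chain to which dystroglycan binds, is a very long gene too and was 32.1-fold higher, with 28.3 and 44.4 normalized counts in wt and 1212 and 1121 in Top2β-null libraries. On the list of 18 partners of the complex, which includes Lama2, 17 were tested, 6 passed the adjusted p higher and 10 lower, and 1 was called higher and 3 lower. Among the higher ones, Nos1 was tested through the Top2β-null libraries alone and so had to be higher. Over all features 32.5% passed in each direction, and 5.27% and 4.97% were called higher and lower. Dag1, dystroglycan, had a log2 fold change of 0.13, and the called lower ones included Dtna and Sspn, encoding dystrobrevin alpha and sarcospan. Of 14 skeletal muscle markers 5 were tested, 3 passed the adjusted p lower (Des, Acta1 and Tnnt3) and 1 higher (Pax3), and Myog, Myf5 and Pax7 were at 0. Des and Tnnt3 were tested through the wt libraries alone and so had to be lower, and Pax3 through the Top2β-null libraries alone and so had to be higher. The summed levels of the marker list were mostly those of Ttn, at between 613 and 687 in each library. They were 1080 and 1065 normalized counts in wt and 1010 and 1045 in Top2β-null libraries. Acta1, skeletal actin, was called lower with a log2 fold change of -1.06, and Tnnt3 had 20.2 and 22.2 against 1.04 and 0. Des, desmin, was at 88.8 and 139 in wt and at 2.07 and 0.990 in Top2β-null libraries, while Pax3 had no count in wt and 248 and 273 normalized counts in Top2β-null libraries. Their part in the values of the dystrophin complex was not tested.

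**Figure D2:**
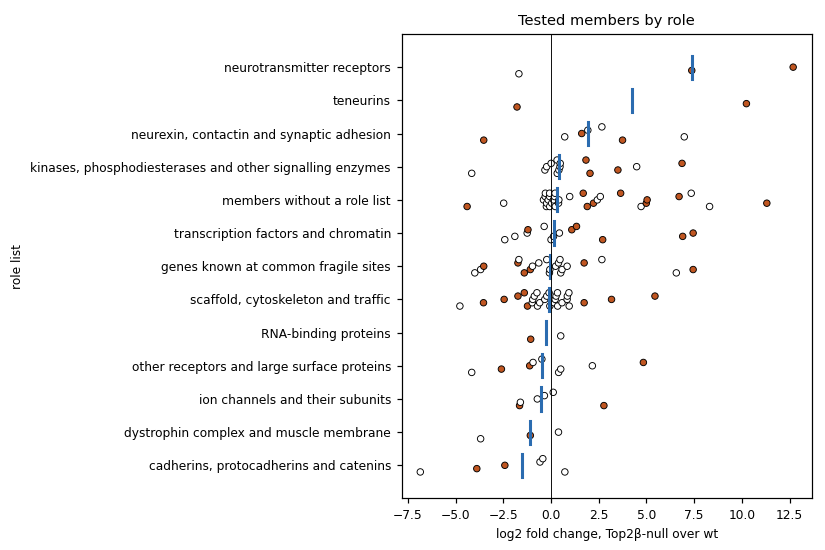
Log2 fold change of the 131 tested genes on each role list (a gene may be on more than 1 list), with called genes filled and a blue bar at each list's median. The scaffold list holds 29 tested genes on both sides of 0, while the 6 tested cadherins, protocadherins and catenins have a median of -1.50.

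The RNA-binding protein Celf2, a regulator of splicing, fell 2.10-fold, and with scaling to the total count its log2 fold change was -0.999, just short of the cut-off. Rbms3 of the same list had a log2 fold change of 0.51. The 49 genes without a role list included 8 called higher and 1 called lower among 32 tested, beside 5.27% and 4.97% of all features. Mdga2 and Nkain2 among the 8 were tested through the Top2β-null libraries alone. Nkain2, which encodes a protein that interacts with a subunit of the sodium pump, had 2.02 and 5.80 normalized counts in wt and 435 and 418 in Top2β-null libraries, a log2 fold change of 6.71 that was 7.64 without the second wt library. Ntrk3, the receptor of neurotrophin-3, was 32.9-fold higher, at 45.4 and 40.6 against 1429 and 1396. Aff2, a nuclear protein of the AF4 family, was 12.5-fold higher, and Edil3, a matrix protein that binds integrins, 4.68-fold higher. Lrrc4c, a ligand of netrin-G, and Nckap5 were 3.71-fold and 3.22-fold higher.

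Slc9a9, a sodium/proton exchanger of endosomes (chr9:94669909-95230445), was the lower gene with the largest fold among those called. It fell 21.4-fold, from 241 and 277 to 10.4 and 13.9 normalized counts. Without the second wt library its mean was 87.5, under the cut-off, with a log2 fold change of -4.30.

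Below the cut-off on the mean, 22 further genes passed the adjusted p and the fold, 11 in each direction. Naaladl2 had 1 count in each wt library and 91 and 117 in Top2β-null libraries, a ratio of 107 with a counting interval from 29.2 to 887. Skint5 had no count in wt and 41 and 37 in Top2β-null libraries, at least 13.4-fold higher. In the other direction, Frmpd4 had 35 and 28 counts in wt and 1 in each Top2β-null library, a wt to Top2β-null ratio of 30.7 with an interval from 8.16 to 259. Pcdh11x had 19 and 10 counts in wt and none in Top2β-null libraries, at least 4.74-fold lower. These genes are among those that passed the filter through 1 group.

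Genes at or near common fragile sites are a further list, with 22 of 33 tested, 2 called higher and 4 lower. Over protein-coding genes 7.21% were called higher and 7.08% lower. Their median log2 fold change was -0.08. Auts2 and Nbea were the higher ones, and Ccser1, Negr1, Pard3b and Sgcd the lower ones. Wwox, a tumour suppressor at a much studied fragile site, had 1272 and 1170 normalized counts in wt and 1165 and 1134 in Top2β-null libraries (edgeR adjusted p = 0.20). The means lay closer together than the wt libraries. Fhit had at most 5 counts in any library.

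Not every very long gene differed. Of the 131 tested, 14 had an adjusted p of 0.05 or more, and 52 passed it with a log2 fold change of at most 1 in size, 29 higher and 23 lower. Cdkal1, a tRNA-modifying enzyme of 664 kb, had 3364 and 3385 normalized counts in wt and 3482 and 3277 in Top2β-null libraries. Smyd3, a lysine methyltransferase of 566 kb, had 1289 and 1247 against 1258 and 1272. In both genes the 2 groups overlapped. The formin Diaph2 had a log2 fold change of -0.06 with an SE of 0.03, at levels between 4910 and 5299 normalized counts.

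The 8 genes with the highest level per kb of exon, averaged over the 4 libraries, included Zfhx3, Lpp, Gm20388, Foxp1, Ptprk, Dock1 and Atrnl1. Lpp, a protein of focal adhesions, stood at 2945 normalized counts per kb in wt and at 2343 in the Top2β-null libraries, a log2 fold change of -0.33. Of these 8, Zfhx3 and Foxp1 were called, in opposite directions. Over all long genes with a mean above 100 the median level was 138 normalized counts per kb of exon, against 708 over all such protein-coding genes, so that the group as a whole was lowly expressed.

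Among the 5 longest tested genes, Gm20388 (4435 kb) is a model all of whose exon bases lie in exons of other genes on the same strand, so that its 7601 and 7587 normalized counts in wt and 8894 and 8792 in Top2β-null libraries cannot be assigned to it. The next were Ptprd (2271 kb), Dmd (2257 kb), Macrod2 (1998 kb) and Dlg2 (1973 kb). Macrod2, a hydrolase of ADP-ribose marks, had a log2 fold change of -0.97, from 671 and 670 to 358 and 325 normalized counts. Dlg2, a synaptic scaffold, had 30.3 and 57.0 in wt and 33.1 and 41.6 in Top2β-null libraries, and the groups overlapped. In all, 6 of the 219 genes share at least 50% of their exon bases with other genes on the same strand, and none of them was called.

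**Figure D3:**
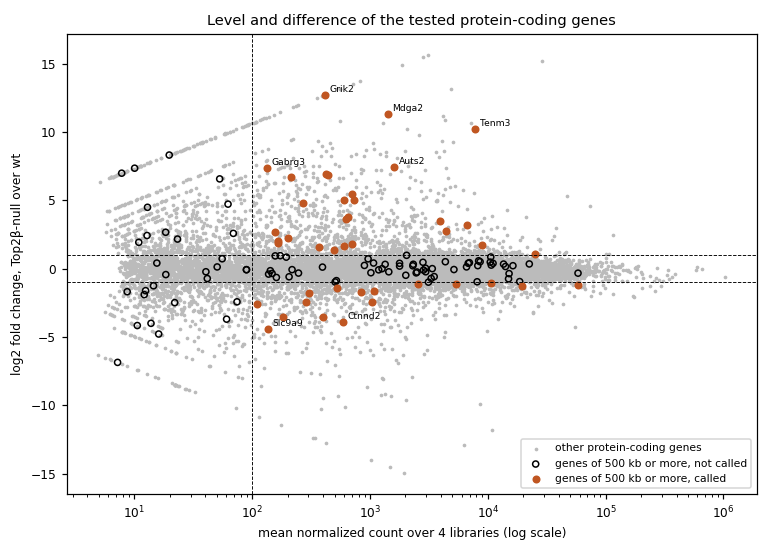
Log2 fold change (Top2β-null over wt) against the mean normalized count over 4 libraries (log axis) for tested protein-coding genes, with the 131 tested very long genes drawn larger and the 43 called ones filled. Dashed lines mark the cut-offs of 1 and 100, and Grik2, Mdga2 and Tenm3 lie highest among the very long genes.

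The comparison by length used 4 classes of protein-coding genes. The share called of those tested was 13.1% for genes under 100 kb (12708 tested), 18.01% from 100 to 200 kb (1216), 26.5% from 200 to 500 kb (607) and 32.8% for the very long genes. Of genes with a mean above 100, the shares were 15.9%, 21.1%, 33.0% and 42.6%. Among genes with at least 100 counts in every library they were 11.8%, 14.8%, 24.3% and 25.3%, so that the step between the last classes was small there. Of the 31 tested genes of 1000 kb or more, 22.6% were called, and 4 of 16 with at least 100 counts in every library. The median size of the log2 fold change, without regard to sign, was 0.40, 0.44, 0.62 and 0.99 over the tested genes, and 0.32, 0.35, 0.40 and 0.48 over those with at least 100 counts in every library. The first of these sets holds the 16 and 8 long genes that were tested through 1 group alone. Over the tested genes of 1000 kb or more this median size was 1.21. These are descriptions, since genes are not replicates of a condition.

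**Figure D4:**
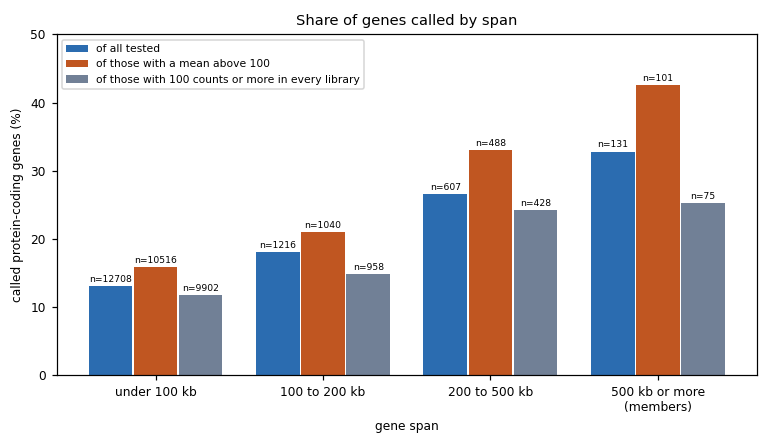
Percent of protein-coding genes called in 4 classes of gene span, over all tested genes (blue), those with a mean normalized count above 100 (orange) and those with at least 100 counts in every library (grey), with the number of genes over each bar. The bars rise over the 4 classes, from 13.1% to 32.8% of tested genes, and over genes with at least 100 counts in every library the last classes are at 24.3% and 25.3%.

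Level moved with length, and the shares were therefore also counted within ranges of the mean normalized count. From 100 to 300, 52.4% of 21 long genes and 41.3% of 1163 other protein-coding genes were called. From 300 to 1000 it was 77.3% of 22 against 30.0% of 1800. The shares were 21.7% of 23 and 16.4% from 1000 to 3000, 31.6% of 19 and 9.28% from 3000 to 10000, and 4 of 16 long genes and 8.81% of the others above 10000. The share was higher for the long genes in each range, on small numbers of them. These shares include the 6 called genes that were tested through the Top2β-null libraries alone and so had to be higher.

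The direction was less clear than the size. The median log2 fold change of the tested long genes was 0.19, with quartiles at -0.73 and 1.78, and the medians of the shorter classes were -0.04, 0.02 and 0.09 in order of span. Over long genes with at least 100 counts in every library it was 0.03, and over those of 750000 bp or more it was -0.07. Within the 101 long genes with a mean above 100, span and log2 fold change were nearly unrelated (Pearson's r = -0.03, Spearman's rho = -0.06, across genes of the same 4 libraries). The size of the log2 fold change had a Spearman's rho of -0.07 with span and of -0.33 with the mean normalized count. Of 31 tested genes of 1000 kb or more, 7 were called, 3 higher and 4 lower.

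**Figure D5:**
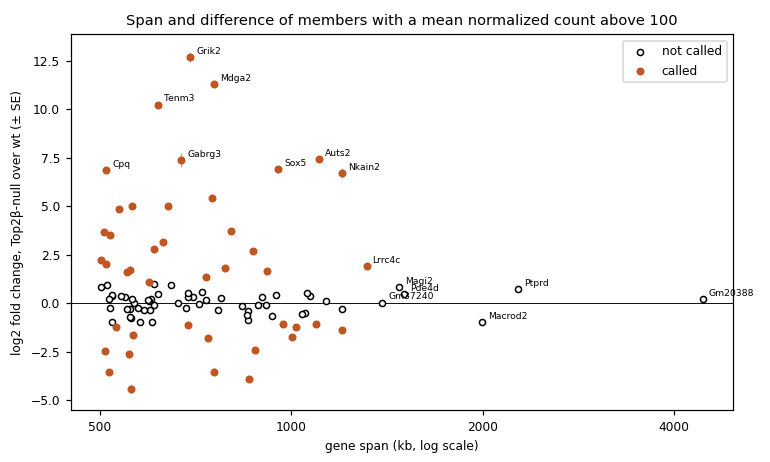
Log2 fold change with its SE against gene span (log axis) for the 101 very long genes with a mean normalized count above 100, with called genes filled. Points on both sides of 0 are spread over the shorter spans, and no gene longer than Lrrc4c (1313 kb) was called.

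At the threshold of the rule, the genes just inside were Edil3 (501752 bp, called higher), Dock1 (502986 bp) and Car10 (503722 bp, with 1 count in all). Just outside it, Pde1c (499300 bp) had a log2 fold change of -2.16, Dnm3 (495582 bp) of 1.67 and Cacna1e (493771 bp) of 3.83, with mean normalized counts of 9.92, 99.1 and 8.34.

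The counts on all 219 genes made up 0.501% and 0.503% of protein-coding counts in wt, against 0.553% and 0.535% in Top2β-null libraries. The means were 0.502% ± 0.00138 (SD, n = 2) and 0.544% ± 0.0128 (SD, n = 2), and the groups did not overlap. With 2 libraries against 2, an exact permutation test cannot give a p below 0.33. At least 10 counts were found for 115 long genes in each wt library and for 125 and 124 in the Top2β-null libraries. The called genes lay on 18 chromosomes, with the most, 5, on chromosome 10.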

How the data were processed

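Per its methods, the study used Trim Galore! for trimming, STAR for alignment to mm10 (GRCm38) and TEtranscripts for counting over Gencode M9 genes and repeats. The authors deposited these counts as whole numbers without scaling. The mode and strand setting of the counting are not given in the sources used here. Gene identifiers were matched without version to GENCODE M21 (54495 of 54842), which gave symbols, spans and exons, and every per-library column was used.

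The filter asked for 10 counts in 2 or more libraries. In R 4.3.3, edgeR 4.0.16 was run with TMM factors from all features, its quasi-likelihood test with genotype as its term, and Benjamini-Hochberg adjustment over all 26566 features tested. The SE was derived from the F statistic (size of the log2 fold change over root F). The test was checked on simulated data. Chi-square over its degrees of freedom between replicates was 3.65 for wt and 5.07 for Top2β-null, beyond counting noise. The floor was 3 counts per library, and ratios to 1 to 3 counts carry exact binomial 95% intervals.

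Genes were named by rule: the 8 called genes with the largest fold change in each direction, the 8 highest per kb of exon, the 5 longest tested, all dystrophin complex genes and teneurins, 3 on each side of the span threshold, those at the floor in 1 group and over 100 normalized counts in the other, and up to 3 called per role list. Some genes that the rule names are not reported here. Names outside this rule were picked with their values in view. The members, the role, partner and marker lists and the alternatives were chosen with earlier results of these data known. Alternatives were DESeq2 1.42.0, its size factors, TMM from genes alone, total counts, other filters, a replicate block, other span thresholds, the left-out prefixes kept and each library left out.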

Additional observations from a re-analysis of the deposited data

How the results depend on the processing

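The calls changed little with the test or the scaling. DESeq2, its size factors, TMM factors from genes alone and no filter on low counts gave the same 43 called genes, and scaling to the total count gave 45, of which 42 were shared. That scaling moved all features by a median of 0.07. The median log2 fold change, 0.19 as reported, was 0.26 with total counts, 0.14 without a filter, 0.21 with the left-out prefixes kept, and 0.22 with a mean above 100. It was 0.13 from 400000 bp and turned to -0.072 from 750000 bp. At 400000 bp there were 43 calls higher and 29 lower (106 and 83 by adjusted p alone), and at 750000 bp 10 and 8 (27 and 23), as the class holds more or fewer genes. A filter at 100 counts in every library left 9 calls higher and 10 lower (36 and 31 by adjusted p alone) and a median of 0.042, since genes near the floor in 1 group are no longer tested. Among alternatives chosen after seeing the data, the median was 0.22 without read-through models and 0.13 with at least 10 counts in every library, where 21 genes were called higher and 16 lower (51 and 40 by adjusted p alone).

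Leaving out each library in turn gave 27 to 29 calls higher and 14 to 18 lower, 64 to 67 and 44 to 46 by adjusted p alone, and a median of 0.19 to 0.22. In such fits the lone library of a group is assumed to vary like the other group. Thsd4 lost its call without either wt library (mean 80.0 or 85.8), Slc9a9 without the second wt library (87.5) and Gabrg3 without either Top2β-null library (87.7 or 93.7), each because its mean fell under 100. Kalrn, Mctp1, Fars2, Syt1 and Macrod2, with fold changes just under the cut-off, gained one in at least 1 of these fits, as did Immp2l without the first Top2β-null library (-1.005 in place of -0.64). Of 43 named tested genes, 1 changed direction in any alternative run, Dlg2, which was at -0.60 without the first wt library and at 0.30 without the second, the cause of which was not tested.

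The share of counts on the long genes was 0.435% and 0.464% of all gene counts and 0.350% and 0.367% of all counts in wt and Top2β-null MEF cells, and 0.501% to 0.503% and 0.535% to 0.553% of protein-coding counts with 1 library left out. Same-numbered libraries did not deviate together (correlation 0.02 over 17952 features), so the numbers were not taken to pair the samples. With the replicate block, 27 genes were called higher and 16 lower, 67 and 49 by adjusted p alone, with a median of 0.19. At this depth 88 of the 219 genes could not be tested.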
